A study of Mus musculus with 12 samples.

Results

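The genes described here encode the chains of collagens and laminins, the main structural proteins of connective tissue and of basement membranes. Members were rows of the gene table whose symbol is Col, a number, a and a number, or Lam, a letter a, b or c and a number, kept where 3 or more of the 12 libraries had a value of 1 or higher. Of 53465 rows, 55 matched (44 collagen and 11 laminin genes), and 51 reached that level, 40 collagen and 11 laminin genes. The matched rows below it were Col4a4, Col9a1, Col10a1 and Col26a1. RNA was sequenced in bulk from cells labelled peritoneal macrophages (PMs) of C57BL/6 mice at postnatal week 10. The 4 groups of 3 libraries were Lyz2Cre-BHLHE40-Fl with LPS, Lyz2Cre-BHLHE40-Fl control, Lyz2Cre with LPS and Lyz2Cre control. Both genotype labels carry Lyz2Cre, a Cre recombinase driven by the Lyz2 gene of myeloid cells, so the Lyz2Cre libraries are the comparison for the BHLHE40-Fl allele. LPS, lipopolysaccharide, is the bacterial endotoxin that macrophages sense through TLR4. The series asks what BHLHE40, a transcription factor of the basic helix-loop-helix family, does in the inflammatory response of macrophages. The labels do not say that libraries came from separate mice, so each p-value stands for the spread among these libraries alone, which may be technical.

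A collagen molecule is a triple helix of 3 chains, each with a long repeat in which glycine recurs regularly. Fibrillar collagens (types I, II, III, V, XI, XXIV and XXVII) form the cable-like fibrils of tissue, network collagens (types IV and VIII) form sheets, type VI forms beaded filaments, and fibril-associated collagens sit on the surface of fibrils. A laminin is a cross-shaped trimer of an alpha, a beta and a gamma chain that organises the basement membrane under epithelia, endothelia and the mesothelium that lines the peritoneum. Fibroblasts, mesothelial cells and other stromal cells are the usual sources of most of these chains, and macrophages are known to make some of them.

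Values are the deposited ones, whole reads divided by 1 factor per library, with 20489330 to 29354915 recovered reads per library and 1 read worth 0.725 to 1.56. A single read therefore reached the level of 1 in LPS libraries (1 read worth at least 1.17) and not in controls (at most 0.838). Bhlhe40, the targeted gene, did not go with the label: it averaged 2232 ± 244 in Lyz2Cre-BHLHE40-Fl LPS libraries, 7893 ± 239 in Lyz2Cre-BHLHE40-Fl controls, 2467 ± 226 in Lyz2Cre LPS libraries and 4976 ± 295 in Lyz2Cre controls (SD, n = 3 each). Against Lyz2Cre, it was higher in Lyz2Cre-BHLHE40-Fl controls (log2 difference 0.67, adjusted p = 6.32e-06) and did not pass the test with LPS (log2 difference -0.15, adjusted p = 0.201). A whole-gene value cannot check the loss of part of a gene, so the groups below are the libraries as labelled. Mitochondrial genes took 1.52% ± 0.66 and 1.36% ± 0.23 of the values in Lyz2Cre-BHLHE40-Fl LPS and control libraries, against 0.562% ± 0.066 and 1.13% ± 0.21 in those of Lyz2Cre (SD, n = 3 each), and the part of this in the results was not tested. Of 15 mesothelial markers, 14 were higher in Lyz2Cre-BHLHE40-Fl libraries in both treatments. Their summed value was 1616 to 1991 in Lyz2Cre-BHLHE40-Fl LPS libraries and 2523 to 3343 in Lyz2Cre-BHLHE40-Fl controls, against 9.4 to 37.6 in Lyz2Cre LPS libraries and 23.2 to 42.7 in Lyz2Cre controls. Of the 13 macrophage markers, 10 were lower and 0 higher in Lyz2Cre-BHLHE40-Fl libraries with LPS, and 9 were lower and 1 (Spi1) higher in controls, and all 13 were present in every library. Among all tested genes, 17.7% were higher and 19.8% lower with LPS, and 15% and 16.6% in controls.

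Sequences are shown for 5 members that carry the differences described below and have a RefSeq entry, as 250 bases before the RefSeq start on build GRCm38.p6 (mm10), 5′ to 3′ on the gene's strand. Capitals mark motif letters searched on both strands: TATA box (TATAAA), GC box (GGGCGG) and CCAAT box (CCAAT). Col3a1 and Lama5 carry the difference between the genotype labels:
Col3a1, chr1:45311288-45311537, plus strand: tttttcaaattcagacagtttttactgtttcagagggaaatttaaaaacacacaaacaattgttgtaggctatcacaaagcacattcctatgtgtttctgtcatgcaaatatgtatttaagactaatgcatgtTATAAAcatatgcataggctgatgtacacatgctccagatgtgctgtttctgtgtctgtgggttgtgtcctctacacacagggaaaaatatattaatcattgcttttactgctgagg
Lama5, chr2:180225860-180226109, minus strand: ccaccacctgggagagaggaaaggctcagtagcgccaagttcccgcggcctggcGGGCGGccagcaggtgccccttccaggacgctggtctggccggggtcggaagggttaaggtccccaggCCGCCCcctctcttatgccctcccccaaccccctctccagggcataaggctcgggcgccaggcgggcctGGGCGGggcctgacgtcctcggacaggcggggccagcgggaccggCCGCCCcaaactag
Col27a1, Col11a2 and Col5a3 rose with LPS under both labels:
Col27a1, chr4:63215162-63215411, plus strand: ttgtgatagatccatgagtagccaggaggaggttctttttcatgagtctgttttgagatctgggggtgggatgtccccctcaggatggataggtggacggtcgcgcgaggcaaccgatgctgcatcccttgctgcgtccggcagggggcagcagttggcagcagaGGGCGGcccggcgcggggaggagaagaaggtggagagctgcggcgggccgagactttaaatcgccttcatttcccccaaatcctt
Col11a2, chr17:34038888-34039137, plus strand: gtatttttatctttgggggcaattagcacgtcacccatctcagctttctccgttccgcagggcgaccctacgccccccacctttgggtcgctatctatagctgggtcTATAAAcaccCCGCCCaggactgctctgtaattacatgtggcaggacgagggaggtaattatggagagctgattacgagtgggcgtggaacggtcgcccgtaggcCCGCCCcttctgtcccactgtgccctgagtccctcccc
Col5a3, chr9:20815068-20815317, minus strand: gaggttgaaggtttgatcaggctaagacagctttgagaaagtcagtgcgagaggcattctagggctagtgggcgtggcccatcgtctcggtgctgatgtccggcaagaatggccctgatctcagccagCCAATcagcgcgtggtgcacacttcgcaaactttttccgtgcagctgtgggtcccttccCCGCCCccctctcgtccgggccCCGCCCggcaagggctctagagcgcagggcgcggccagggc
The Col3a1 window had a GC content of 35.2% and the only motif in it was a TATA box, whereas the Lama5 window was 72.4% GC and held 4 GC boxes. Over the 44 windows of the 40 matched genes with an entry, 24 (54.5%) held a GC box, against 32.7% of all 32851 windows of that length. A CCAAT box was in 14 (31.8%, against 33.8%) and a TATA box in 5 (11.4%, against 12.4%). The E-box CACGTG, the letters that factors of the BHLHE40 family are known to bind, was in 0 of the 44 windows and in 6.02% of all windows. The AP-1 core TGANTCA was in 1 (Col6a1) and the kappaB core GGGNNTTCC in 2 (Col6a4 and Col9a2), against 6.75% and 4.98% of all windows. These are matches of letters within 250 bases and say nothing on binding.

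Most collagen and laminin genes were higher in Lyz2Cre-BHLHE40-Fl libraries than in Lyz2Cre libraries, in both treatments. In controls 31 of the 51 passed the test as higher and 4 as lower, where 15% and 16.6% of all 20419 tested genes were called higher and lower. With LPS 27 were higher and 4 lower, where the percentages over all tested genes were 17.7% and 19.8%. The median log2 difference of the members was 1.44 in controls and 1.08 with LPS, against 0.00 and -0.02 over all tested genes. With library totals made equal, which moves the median of all genes by 0.17 in controls and 0.24 with LPS, 32 members were higher and 3 lower in controls (25% and 12.4% of all tested genes), and 28 were higher and 2 lower with LPS (30.4% and 11%). The 2 comparisons share no libraries, but both compare the same labels. Of the members, 38 reached a value of 1 in at least 3 libraries of each label, 6 (Col8a2, Lamc3, Col6a5, Col22a1, Col11a1 and Col13a1) did so only in Lyz2Cre-BHLHE40-Fl, and 2 (Col19a1 and Col17a1) only in Lyz2Cre. For these 8 the direction of the label difference follows from the level chosen. Of the 38, 26 were called higher and 4 lower in controls, and 24 higher and 3 lower with LPS. Summed over the 50 members other than Lamc1, the value was 14952 to 19800 in Lyz2Cre-BHLHE40-Fl LPS libraries and 11872 to 16407 in Lyz2Cre-BHLHE40-Fl controls, against 4929 to 6776 in Lyz2Cre LPS libraries and 2554 to 2827 in Lyz2Cre controls. The libraries of the labels did not overlap in this sum. The members took 0.0595% ± 0.0087 and 0.0793% ± 0.013 of all reads in Lyz2Cre-BHLHE40-Fl LPS and control libraries, against 0.0198% ± 0.0024 and 0.0204% ± 0.00063 in those of Lyz2Cre (SD, n = 3 each). In bulk RNA, more cells of a type and more RNA per cell cannot be told apart, and the part that mesothelial RNA had in this difference was not tested.

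**Figure D1:**
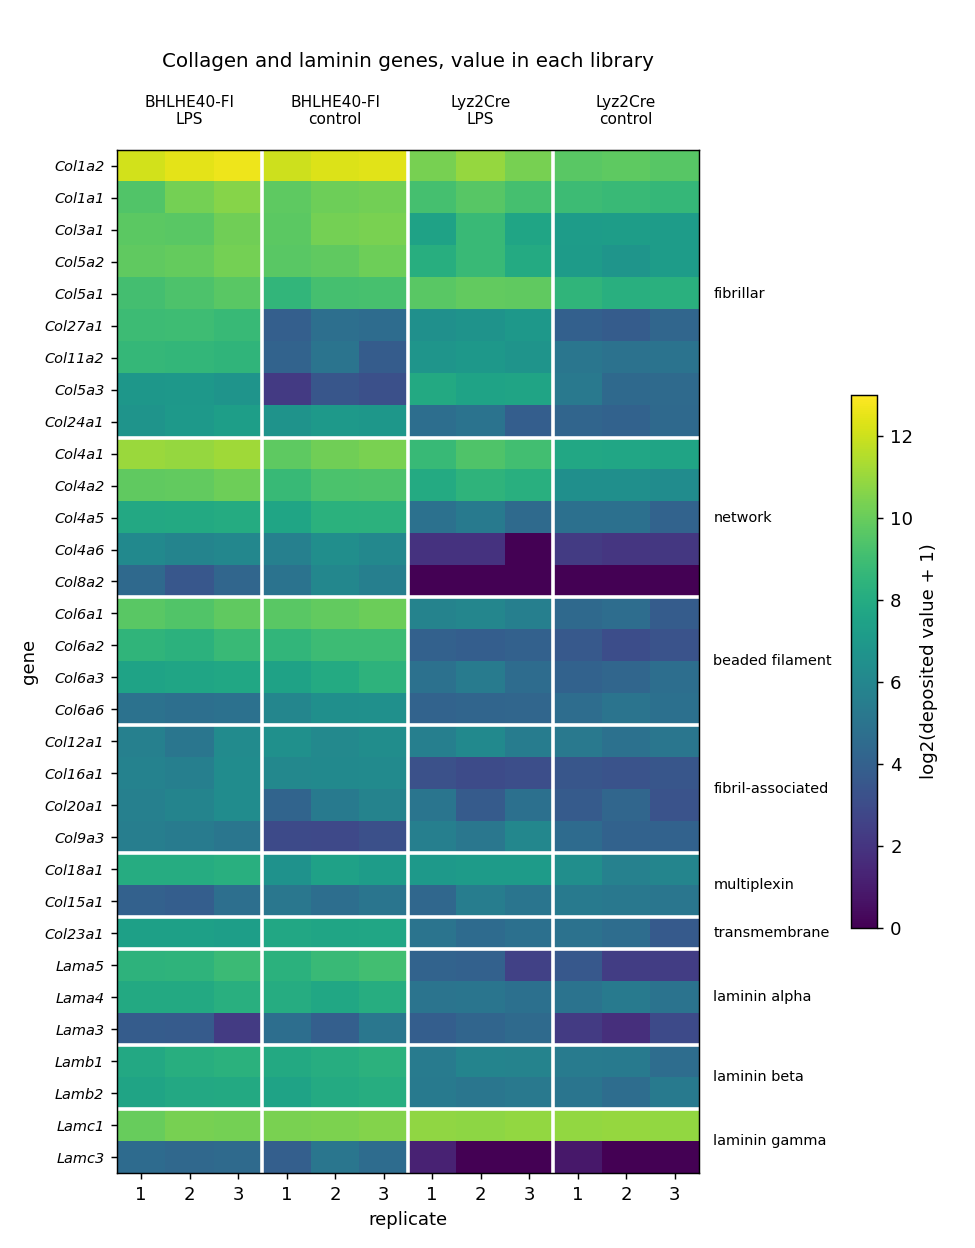
Log2(deposited value + 1) of the members with a mean of at least 10 over the 12 libraries (rows, by class of chain) in each library (columns, replicates 1 to 3 of each group). Most rows are brighter in the 6 Lyz2Cre-BHLHE40-Fl libraries, Lamc1 is brightest in the Lyz2Cre libraries, and Col27a1, Col11a2 and Col5a3 are bright in LPS libraries. BHLHE40-Fl on the figure stands for Lyz2Cre-BHLHE40-Fl.

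Among the fibrillar collagens, type I is a trimer with more alpha-1 chains, from Col1a1, than alpha-2 chains, from Col1a2. Col1a2 was the member with the highest value, at 4383, 5624 and 6442 in Lyz2Cre-BHLHE40-Fl LPS libraries and 4124, 5168 and 5402 in Lyz2Cre-BHLHE40-Fl controls, against 1284, 1981 and 1297 in Lyz2Cre LPS libraries and 805, 865 and 796 in Lyz2Cre controls. All 6 Lyz2Cre-BHLHE40-Fl libraries were above all 6 Lyz2Cre libraries, with a difference of 5.96-fold in controls (log2 2.56 ± 0.15, adjusted p = 3.53e-10) and 3.61-fold with LPS (log2 1.86 ± 0.15, adjusted p = 3.02e-08). Col1a1 was at 706, 1249.6 and 1615 with LPS and 885, 1103 and 1223 in controls of the Lyz2Cre-BHLHE40-Fl label, and 567, 784 and 577 with LPS and 476, 445 and 400.3 in controls of the Lyz2Cre label. The LPS groups overlapped for Col1a1, and its difference was smaller, 2.43-fold in controls (adjusted p = 0.000134) and 1.85-fold with LPS (adjusted p = 0.00515). Per kilobase of the longest coding transcript, the ratio of Col1a1 to Col1a2 was 0.191 ± 0.0414 and 0.197 ± 0.00649 in Lyz2Cre-BHLHE40-Fl LPS and control libraries, against 0.385 ± 0.0248 and 0.483 ± 0.0431 in those of Lyz2Cre. Its ranges did not overlap between the labels. By the length of all annotated exons the ratios were 0.40 and 0.41 against 0.81 and 1.01, in the same order.

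Col3a1, whose chain forms type III collagen in fibrils with type I, was at 833, 814 and 1175 in LPS and 854, 1257 and 1326 in control libraries labelled Lyz2Cre-BHLHE40-Fl, against 178, 451 and 199 in LPS and 146, 149 and 143 in control libraries labelled Lyz2Cre. Replicate 2 of the Lyz2Cre LPS group stood above the other 2 of its group, yet below every Lyz2Cre-BHLHE40-Fl library. The label difference was 7.84-fold in controls (log2 2.94 ± 0.26, adjusted p = 5.4e-08) and 3.41-fold with LPS (log2 1.88 ± 0.26, adjusted p = 1.34e-05). Col5a2, the alpha-2 chain of type V collagen, which helps to start type I fibrils, lies tail to tail with Col3a1 on chromosome 1 with 24614 bases between them. It was at 919, 975 and 1262 in Lyz2Cre-BHLHE40-Fl LPS libraries and 806, 922 and 1102 in Lyz2Cre-BHLHE40-Fl controls, against 284, 451 and 243 in Lyz2Cre LPS libraries and 139, 109 and 146 in Lyz2Cre controls, again without overlap between the labels. It was 7.19-fold higher in Lyz2Cre-BHLHE40-Fl controls (adjusted p = 1.62e-09) and 3.23-fold higher with LPS (adjusted p = 1.1e-06). Its partner Col5a1 behaved otherwise, at 557, 667 and 808 with LPS and 382, 567 and 593 in controls of the Lyz2Cre-BHLHE40-Fl label, and 821, 938 and 899 with LPS and 366, 298 and 309 in controls of the Lyz2Cre label. The Lyz2Cre LPS libraries were the highest of the 4 groups for Col5a1, so the label difference was 1.58-fold higher in controls (log2 0.64 ± 0.15, adjusted p = 0.00328) and 1.31-fold lower with LPS (log2 -0.40 ± 0.15, adjusted p = 0.0482). The call with LPS was lost in 8 of the 12 fits that left out 1 library, with an adjusted p of up to 0.214, and under equal library totals (log2 -0.12). Per kilobase, Col5a1 to Col5a2 was 0.507 ± 0.0307 and 0.427 ± 0.0556 in Lyz2Cre-BHLHE40-Fl LPS and control libraries, against 2.28 ± 0.641 and 1.97 ± 0.259 in those of Lyz2Cre.

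Col5a3, which encodes a less widespread chain of type V, was the fibrillar gene that was lower in Lyz2Cre-BHLHE40-Fl libraries in both treatments. It was at 116, 121 and 105 in Lyz2Cre-BHLHE40-Fl LPS libraries and 3.6, 10.3 and 8 in Lyz2Cre-BHLHE40-Fl controls, against 233, 184 and 194 in Lyz2Cre LPS libraries and 37, 21.1 and 21.8 in Lyz2Cre controls. The groups did not overlap, and it was 3.65-fold lower in controls (log2 -1.79 ± 0.31, adjusted p = 0.000179) and 1.79-fold lower with LPS (log2 -0.83 ± 0.31, adjusted p = 0.044). The call with LPS was lost in 6 of the 12 fits that left out 1 library, with an adjusted p of up to 0.144. Col24a1, a fibrillar collagen known from developing bone, was at 107, 127 and 157 with LPS and 99.6, 130.3 and 117 in controls of the Lyz2Cre-BHLHE40-Fl label, and 25, 30.3 and 14 with LPS and 17.7, 16.2 and 20.9 in controls of the Lyz2Cre label. It was 6.34-fold higher in Lyz2Cre-BHLHE40-Fl controls (adjusted p = 5.46e-07) and 5.63-fold higher with LPS (adjusted p = 9.95e-07), with no overlap between the labels. Col2a1, the cartilage collagen, averaged below 1 in all 4 groups. Col11a1 was at 2.9, 1.6 and 4.3 in Lyz2Cre-BHLHE40-Fl controls and at 0 in all Lyz2Cre-BHLHE40-Fl LPS libraries and all Lyz2Cre controls, with 1 value of 1.4 in Lyz2Cre LPS libraries.

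**Figure D2:**
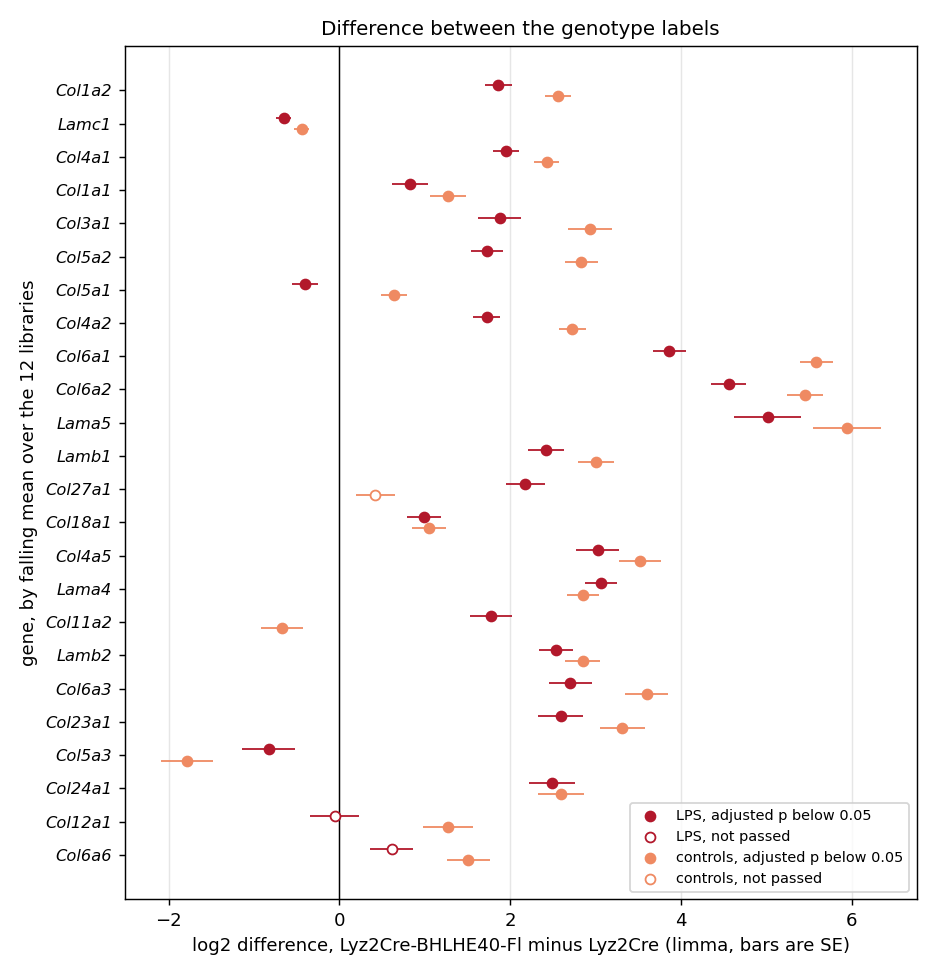
Log2 difference between the genotype labels (Lyz2Cre-BHLHE40-Fl minus Lyz2Cre, horizontal axis, limma estimates with SE bars) for the 24 members with the highest means (vertical axis), with LPS and in controls. Filled points passed the test. The widest differences are those of Lama5, Col6a1 and Col6a2. Lamc1 and Col5a3 lie below 0 in both treatments, and Col11a2 and Col5a1 lie on opposite sides of 0 in the 2 treatments.

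Col27a1 and Col11a2 are fibrillar genes known from cartilage. Col27a1 was at 489, 501 and 433 in LPS and 14.5, 26.1 and 23.2 in control libraries labelled Lyz2Cre-BHLHE40-Fl, against 91.7, 102 and 119.8 in LPS and 14.6, 13 and 18.4 in control libraries labelled Lyz2Cre. The control groups overlapped and did not pass the test, whereas with LPS the Lyz2Cre-BHLHE40-Fl libraries were 4.54-fold higher (log2 2.18 ± 0.23, adjusted p = 7.01e-07) without overlap. Col11a2 was at 406, 393 and 361 in Lyz2Cre-BHLHE40-Fl LPS libraries and 16.7, 31.6 and 13 in Lyz2Cre-BHLHE40-Fl controls, against 109.8, 123 and 104 in Lyz2Cre LPS libraries and 33.9, 29.2 and 30.1 in Lyz2Cre controls. It was 3.44-fold higher in Lyz2Cre-BHLHE40-Fl libraries with LPS (log2 1.78 ± 0.25, adjusted p = 1.73e-05) and 1.52-fold lower in controls (log2 -0.67 ± 0.25, adjusted p = 0.047). In controls the groups overlapped, and the call was lost in 11 of the 12 fits that left out 1 library, with an adjusted p of up to 0.236, and edgeR gave an adjusted p of 0.0571. In all, 7 of the 11 fibrillar members were higher and 2 lower in Lyz2Cre-BHLHE40-Fl libraries in each treatment, though not the same genes. Col1a1, Col1a2, Col3a1, Col5a2 and Col24a1 were higher in both. Col11a1 and Col5a1 were higher in controls only, and Col11a2 and Col27a1 with LPS only. Col5a3 was lower in both, Col11a2 in controls and Col5a1 with LPS. Over all tested genes, 15% were higher and 16.6% lower in controls, and 17.7% and 19.8% with LPS, so the lower counts were near these shares. In controls the 7 include Col11a1, which reached the level chosen through Lyz2Cre-BHLHE40-Fl libraries alone.

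Type IV collagen, the sheet-forming collagen of basement membranes, is mainly built from the chains of Col4a1 and Col4a2. Their genes lie head to head on chromosome 8, and their first annotated exons overlap by 22 bases on opposite strands. Motifs were not searched or set in capitals in this stretch, though it holds the letters of a GC box. It is shown here on the plus strand to mark how closely the genes start:
Col4a1 and Col4a2, chr8:11312805-11312826: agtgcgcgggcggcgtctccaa
Col4a1 was at 2081, 1937 and 2267 with LPS and 886, 1163 and 1341 in controls of the Lyz2Cre-BHLHE40-Fl label, and 439, 686 and 526 with LPS and 223, 208 and 189 in controls of the Lyz2Cre label. The 4 groups did not overlap. Col4a2 was at 912, 931 and 1106 in LPS and 437, 628 and 665 in control libraries labelled Lyz2Cre-BHLHE40-Fl, against 246, 356 and 296 in LPS and 89.3, 86.7 and 78.7 in control libraries labelled Lyz2Cre, and again the 4 groups did not overlap. Against Lyz2Cre, Col4a1 was 5.47-fold higher in Lyz2Cre-BHLHE40-Fl controls (log2 2.43 ± 0.15, adjusted p = 5.5e-10) and 3.81-fold higher with LPS (log2 1.95 ± 0.15, adjusted p = 1.25e-08). Col4a2 was 6.79-fold (log2 2.73 ± 0.15, adjusted p = 1.77e-10) and 3.29-fold higher (log2 1.72 ± 0.15, adjusted p = 9.18e-08) in the same comparisons. Per kilobase, Col4a1 to Col4a2 was 2.08 ± 0.123 and 1.92 ± 0.0948 in Lyz2Cre-BHLHE40-Fl LPS and control libraries, against 1.78 ± 0.0810 and 2.37 ± 0.0567 in those of Lyz2Cre.

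Col4a5 and Col4a6 encode further type IV chains from a head-to-head pair on chromosome X whose starts are 1309 bases apart. Col4a5 was at 228, 239 and 253 in Lyz2Cre-BHLHE40-Fl LPS libraries and 196, 318 and 328 in Lyz2Cre-BHLHE40-Fl controls, against 27.8, 38.6 and 21.8 in Lyz2Cre LPS libraries and 26.9, 26.7 and 16.7 in Lyz2Cre controls. No Lyz2Cre-BHLHE40-Fl library overlapped a Lyz2Cre library, and the difference was 12-fold in controls (adjusted p = 3.58e-09) and 8.17-fold with LPS (adjusted p = 3.15e-08). Col4a6 averaged 64.5 ± 6.57 and 66.6 ± 16.8 in Lyz2Cre-BHLHE40-Fl LPS and control libraries, against 1.87 ± 1.62 and 3.43 ± 0.321 in those of Lyz2Cre. It was called higher in both treatments (log2 4.75 ± 0.46 with LPS and 3.90 ± 0.46 in controls), with 1 Lyz2Cre LPS library at 0. Without that library, replicate 3, the difference with LPS was 4.10. The third head-to-head pair stayed low: Col4a3 did not exceed 3.6 in any library, and Col4a4 was below the level chosen. Col8a1 and Col8a2 encode type VIII collagen, known from vessel walls and the cornea. Col8a2 averaged 16.9 ± 5.46 and 46.9 ± 17.1 in Lyz2Cre-BHLHE40-Fl LPS and control libraries and had 0 reads in all 6 Lyz2Cre libraries. Set against a floor of 3 reads over the Lyz2Cre group, it was at least 11.7-fold higher with LPS and at least 58.2-fold higher in controls. Col8a1 averaged 9.53 ± 0.416 and 8.93 ± 0.404 in Lyz2Cre-BHLHE40-Fl LPS and control libraries, against 1.97 ± 0.981 and 1.87 ± 1.16 in those of Lyz2Cre, and passed in both treatments. Col8a2 reached the level chosen through Lyz2Cre-BHLHE40-Fl libraries alone, so its direction is no separate finding. Col4a1, Col4a2, Col4a5, Col4a6 and Col8a1 were called higher in Lyz2Cre-BHLHE40-Fl libraries in each treatment, and Col4a3 was not called.

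Type VI collagen forms beaded filaments between basement membranes and fibrils from an alpha-1, an alpha-2 and 1 more chain. Among the 24 members with the highest means, its genes Col6a1 and Col6a2 had the widest label differences of the collagens. Col6a1 was at 820.4, 716 and 900.4 with LPS and 812, 943 and 1073 in controls of the Lyz2Cre-BHLHE40-Fl label, and 55.6, 60.7 and 48.2 with LPS and 20.8, 24.3 and 12.6 in controls of the Lyz2Cre label. It was 49.0-fold higher in Lyz2Cre-BHLHE40-Fl controls (log2 5.58 ± 0.19, adjusted p = 2.06e-13) and 14.8-fold higher with LPS (log2 3.86 ± 0.19, adjusted p = 4.66e-11). Col6a2 was at 358, 322 and 448 in Lyz2Cre-BHLHE40-Fl LPS libraries and 379, 475 and 488 in Lyz2Cre-BHLHE40-Fl controls, against 15.3, 13.8 and 15.6 in Lyz2Cre LPS libraries and 11.5, 7.3 and 9.2 in Lyz2Cre controls. Here the differences were 47.9-fold in controls (log2 5.45 ± 0.21, adjusted p = 6.77e-13) and 25.2-fold with LPS (log2 4.56 ± 0.21, adjusted p = 1.27e-11). Col6a3, the largest of the usual chains, was at 188, 198 and 217 in LPS and 182, 248 and 342 in control libraries labelled Lyz2Cre-BHLHE40-Fl, against 27.8, 41.4 and 23.3 in LPS and 16.2, 18.6 and 25.1 in control libraries labelled Lyz2Cre. It was 12.9-fold higher in controls (adjusted p = 3.38e-09) and 6.52-fold higher with LPS (adjusted p = 1.64e-07). None of these 3 genes had a library of the Lyz2Cre-BHLHE40-Fl label within the range of the Lyz2Cre label. Per kilobase, the ratio of Col6a1 to Col6a2 was 2.47 ± 0.168 and 2.39 ± 0.125 in Lyz2Cre-BHLHE40-Fl LPS and control libraries, against 4.21 ± 0.746 and 2.46 ± 1.17 in those of Lyz2Cre, where Col6a2 was at 7.3 to 15.6. Col6a6, an alternative partner of the first 2 chains, was at 29.3, 26.1 and 27.6 with LPS and 61.8, 88.4 and 89.9 in controls of the Lyz2Cre-BHLHE40-Fl label, and 16.7, 17.9 and 18.7 with LPS and 23.9, 30.8 and 26.8 in controls of the Lyz2Cre label. It was 2.95-fold higher in Lyz2Cre-BHLHE40-Fl controls (adjusted p = 0.000145) and did not pass with LPS. Col6a5 averaged 8.47 ± 2.42 and 16.9 ± 8.35 in Lyz2Cre-BHLHE40-Fl LPS and control libraries, against 0.933 ± 0.808 and 0 in those of Lyz2Cre. It was called higher in both treatments. Since Col6a5 reached the level chosen in 3 or more libraries only under Lyz2Cre-BHLHE40-Fl, its direction is no separate finding. Col6a4 did not exceed 3.1 in any library.

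Fibril-associated collagens, which decorate fibrils, were less uniform. Col12a1 was at 49.2, 33.7 and 77.6 in Lyz2Cre-BHLHE40-Fl LPS libraries and 91.6, 67.9 and 83.3 in Lyz2Cre-BHLHE40-Fl controls, against 47.2, 70.3 and 43.5 in Lyz2Cre LPS libraries and 37.7, 27.6 and 33.5 in Lyz2Cre controls. It was 2.46-fold higher in Lyz2Cre-BHLHE40-Fl controls (adjusted p = 0.00209), and with LPS the groups overlapped and did not pass. Col16a1 averaged 60.1 ± 17.5 and 70.6 ± 3.98 in Lyz2Cre-BHLHE40-Fl LPS and control libraries, against 7.67 ± 0.709 and 9.63 ± 0.635 in those of Lyz2Cre, a difference of 7.84-fold with LPS and 7.33-fold in controls (adjusted p = 5.88e-07 and 6.25e-07). Col20a1 was 2.61-fold higher with LPS and 2.79-fold higher in controls (adjusted p = 0.0138 and 0.0244). The Col20a1 call was lost in 2 and in 4 of the 12 fits that left out 1 library. Col9a3, a chain of the cartilage collagen IX, went the other way in controls, where it averaged 6.93 ± 0.929 in Lyz2Cre-BHLHE40-Fl libraries and 18.1 ± 3.61 in Lyz2Cre libraries (adjusted p = 0.00472). Its exons overlap those of Tcfl5 on the opposite strand by 234 bases, and the strand setting of the counting is not given. Col19a1 averaged 2.0 ± 1.80 in Lyz2Cre-BHLHE40-Fl LPS libraries and 11.1 ± 1.35 in Lyz2Cre LPS libraries (adjusted p = 0.00612), which edgeR did not call (adjusted p = 0.0613). The log2 difference of Col19a1 was -2.26 ± 0.60, and -1.60 without replicate 2 of the Lyz2Cre-BHLHE40-Fl LPS group. Since Col19a1 reached the level chosen in 3 or more libraries only under Lyz2Cre, its direction is no separate finding. Col14a1 averaged 3.47 ± 1.39 and 17.5 ± 6.84 in Lyz2Cre-BHLHE40-Fl LPS and control libraries, against 1.47 ± 1.40 and 7.6 ± 3.96 in those of Lyz2Cre, with no label call. Col9a2 and Col22a1 averaged below 5 in every group.

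Col18a1 and Col15a1 are multiplexins, basement membrane collagens whose ends release the fragments endostatin and restin. Col18a1 was at 259.8, 264 and 292 with LPS and 97.4, 173 and 144 in controls of the Lyz2Cre-BHLHE40-Fl label, and 129, 139 and 140 with LPS and 84.7, 51.9 and 60.3 in controls of the Lyz2Cre label. It was 2.10-fold higher in Lyz2Cre-BHLHE40-Fl controls and 2.0-fold higher with LPS (adjusted p = 0.000475 and 0.000731), with no overlap in either treatment. Col15a1 averaged 18.4 ± 6.85 and 30.5 ± 4.62 in Lyz2Cre-BHLHE40-Fl LPS and control libraries, against 32.1 ± 12.3 and 35.9 ± 2.51 in those of Lyz2Cre, and did not pass. Of the 4 collagens that span the cell membrane, Col23a1 was at 165, 167 and 155 in LPS and 224, 202 and 208 in control libraries labelled Lyz2Cre-BHLHE40-Fl, against 30.6, 22.1 and 26.4 in LPS and 29.3, 24.3 and 11.7 in control libraries labelled Lyz2Cre. It was 9.71-fold higher in Lyz2Cre-BHLHE40-Fl controls and 6.16-fold higher with LPS (adjusted p = 1.58e-08 and 4.18e-07). Col13a1, Col17a1 and Col25a1 did not exceed 3.1 in any library. Col7a1, the anchoring fibril collagen of skin, averaged 8.10 ± 5.98 and 5.90 ± 3.04 in Lyz2Cre-BHLHE40-Fl LPS and control libraries, against 4.83 ± 1.80 and 2.87 ± 3.13 in those of Lyz2Cre, with no call. Col28a1 averaged below 2 in every group.

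Among laminin alpha chains, which carry the sites for cell receptors, Lama5 had the widest label difference of the members present in every library. It was at 334, 351 and 468 in Lyz2Cre-BHLHE40-Fl LPS libraries and 310.4, 442 and 527 in Lyz2Cre-BHLHE40-Fl controls, against 16.7, 15.2 and 4.7 in Lyz2Cre LPS libraries and 10.8, 4.1 and 4.2 in Lyz2Cre controls. It was 67-fold higher in Lyz2Cre-BHLHE40-Fl controls (log2 5.94 ± 0.39, adjusted p = 1.39e-09) and 31.5-fold higher with LPS (log2 5.02 ± 0.39, adjusted p = 1.6e-08). Without replicate 1 of the Lyz2Cre controls the difference in controls was 103-fold. Lama4, the alpha chain of vessel and fat cell laminins, was at 234, 238 and 293 with LPS and 259.5, 210 and 275 in controls of the Lyz2Cre-BHLHE40-Fl label, and 30.6, 31.7 and 26.4 with LPS and 30, 40.5 and 30.1 in controls of the Lyz2Cre label. It was 7.40-fold higher in Lyz2Cre-BHLHE40-Fl controls and 8.62-fold higher with LPS (adjusted p = 1.03e-09 and 5.19e-10). Per kilobase, the ratio of Lama5 to Lama4 was 0.796 ± 0.0474 and 0.924 ± 0.255 in Lyz2Cre-BHLHE40-Fl LPS and control libraries, against 0.213 ± 0.104 and 0.106 ± 0.0741 in those of Lyz2Cre. By the length of all annotated exons these ratios were 1.59 and 1.84 against 0.425 and 0.212. Which of the 2 genes was above the other in Lyz2Cre-BHLHE40-Fl thus depended on the length used. Lama3, an epithelial alpha chain, averaged 9.67 ± 5.09 and 24.8 ± 10.3 in Lyz2Cre-BHLHE40-Fl LPS and control libraries, against 17.9 ± 3.95 and 4.30 ± 2.19 in those of Lyz2Cre. It was higher in Lyz2Cre-BHLHE40-Fl controls (log2 2.28 ± 0.49, adjusted p = 0.00147) and did not pass with LPS. Its exons overlap those of Gm29200 on the opposite strand by 197 bases, so that reads of the 2 genes may not be told apart. Lama1 and Lama2, the alpha chains of early embryo and muscle, averaged below 2 in every group.

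Beta and gamma chains pair before an alpha chain joins. Lamb1, the common beta chain, was at 233, 285 and 318 in LPS and 239.9, 273 and 328 in control libraries labelled Lyz2Cre-BHLHE40-Fl, against 41.7, 56.6 and 56 in LPS and 41.6, 38.1 and 24.3 in control libraries labelled Lyz2Cre. It was 8.08-fold higher in Lyz2Cre-BHLHE40-Fl controls (log2 3.0 ± 0.21, adjusted p = 3.14e-09) and 5.42-fold higher with LPS (log2 2.42 ± 0.21, adjusted p = 6.49e-08). Lamb2 was at 194, 229 and 234 in Lyz2Cre-BHLHE40-Fl LPS libraries and 188, 249.5 and 273 in Lyz2Cre-BHLHE40-Fl controls, against 40.3, 33.1 and 37.3 in Lyz2Cre LPS libraries and 32.3, 24.3 and 40.2 in Lyz2Cre controls. It was 7.34-fold and 5.93-fold higher in the same comparisons (adjusted p = 4.18e-09 and 2.28e-08), and for both genes the labels did not overlap. Lamb3, the beta chain of epithelial laminin, averaged below 4 in every group. Lamc1, the gamma chain of most laminins, was the exception. It was at 1009, 1276 and 1242 with LPS and 1346, 1375 and 1564 in controls of the Lyz2Cre-BHLHE40-Fl label, and 1827, 1792 and 1902 with LPS and 1925, 1950.3 and 1933 in controls of the Lyz2Cre label. It was the second highest member by mean and was lower in Lyz2Cre-BHLHE40-Fl libraries without overlap, 1.36-fold in controls (log2 -0.44 ± 0.09, adjusted p = 0.000558) and 1.57-fold with LPS (log2 -0.65 ± 0.09, adjusted p = 9.16e-06). Lamc1 took 5.04% ± 0.48 and 7.04% ± 0.75 of the members' summed value per kilobase in Lyz2Cre-BHLHE40-Fl LPS and control libraries, against 21.2% ± 3.2 and 36.4% ± 1.2 in those of Lyz2Cre, where it was the highest member per kilobase in controls. Per kilobase, the ratio of Lamb1 to Lamc1 was 0.312 ± 0.0225 and 0.258 ± 0.0208 in Lyz2Cre-BHLHE40-Fl LPS and control libraries, against 0.0368 ± 0.00602 and 0.0236 ± 0.00624 in those of Lyz2Cre. Lamb1 was below Lamc1 in every group on this scale, most so in Lyz2Cre. Lamc3 averaged 21.1 ± 1.16 and 23.6 ± 9.36 in Lyz2Cre-BHLHE40-Fl LPS and control libraries, against 0.467 ± 0.808 and 0.267 ± 0.462 in those of Lyz2Cre, with a single read in each Lyz2Cre group. Its exons overlap those of the antisense gene Gm13441 by 382 bases. Of the genes named above, Col3a1, Col4a2, Col5a1, Col6a6 and Col20a1 also share 43 to 141 exon bases with another annotated gene, where reads may not be told apart. The ratio of Lamc3 between the labels was 45.3 with LPS (95% Poisson interval 8.13 to 1789) and 88.6 in controls (15.9 to 3501). Lamc3 reached the level chosen in 3 or more libraries only under Lyz2Cre-BHLHE40-Fl, so its direction is no separate finding.

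Fewer collagen and laminin genes were called with LPS than between the labels. In Lyz2Cre libraries 17 of the 51 members were higher with LPS and 1 was lower, where 25% and 23.9% of all tested genes were called, so that a larger share of the members than of all genes was higher. The median log2 difference of the members was 0.58, against 0 over all tested genes. In Lyz2Cre-BHLHE40-Fl libraries 8 were higher and 7 lower, where 24.9% and 25.6% of all tested genes were called, a smaller share of the members in both directions, and the median was -0.13, against -0.05. These counts changed with the scaling, and the deposited values summed on average to 30832900 and 37605600 in Lyz2Cre-BHLHE40-Fl and Lyz2Cre LPS libraries, against 20073800 and 22693600 in their controls. With equal library totals, which move the median of all genes by -0.51 in Lyz2Cre-BHLHE40-Fl and -0.58 in Lyz2Cre, 4 members were higher and 24 lower in Lyz2Cre-BHLHE40-Fl (12.8% and 46.8% of all tested genes), and 10 were higher and 7 lower in Lyz2Cre (11.7% and 46.5%). No member was called in opposite directions by the 2 scalings. Among the called changes with LPS, those of Col1a1, Col6a2 and Lamb1 in Lyz2Cre and of Col5a1 in Lyz2Cre-BHLHE40-Fl had the opposite sign under equal totals, without passing the test.

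Col27a1, Col11a2 and Col5a3, all fibrillar collagen genes, rose with LPS under both labels and by either scaling. Col27a1 was 22.3-fold higher in Lyz2Cre-BHLHE40-Fl (log2 4.45 ± 0.23, adjusted p = 1.26e-11) and 6.82-fold higher in Lyz2Cre (log2 2.70 ± 0.23, adjusted p = 1.62e-08). Col11a2 was 18.9-fold higher in Lyz2Cre-BHLHE40-Fl (log2 4.27 ± 0.25, adjusted p = 6.39e-11) and 3.61-fold higher in Lyz2Cre (log2 1.82 ± 0.25, adjusted p = 6.15e-06). Col5a3 was 15.6-fold higher in Lyz2Cre-BHLHE40-Fl (log2 3.89 ± 0.31, adjusted p = 5.74e-09) and 7.65-fold higher in Lyz2Cre (log2 2.93 ± 0.31, adjusted p = 2.65e-07). For these 3 genes no LPS library overlapped a control library of its label, and their log2 differences under equal totals were 3.33 to 3.85 in Lyz2Cre-BHLHE40-Fl and 1.10 to 2.21 in Lyz2Cre. Col9a3 was 5.81-fold higher in Lyz2Cre-BHLHE40-Fl (adjusted p = 4.78e-06) and 2.67-fold higher in Lyz2Cre (adjusted p = 0.00164), the second of which did not pass under equal totals (adjusted p = 0.0955). Col5a3 and Col9a3 were lower in Lyz2Cre-BHLHE40-Fl controls than in Lyz2Cre controls. The mesothelial marker sum was 1616 to 1991 with LPS and 2523 to 3343 in controls of Lyz2Cre-BHLHE40-Fl, and 9.4 to 37.6 with LPS and 23.2 to 42.7 in controls of Lyz2Cre. Which cells carried the rise of these genes was not tested.

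**Figure D3:**
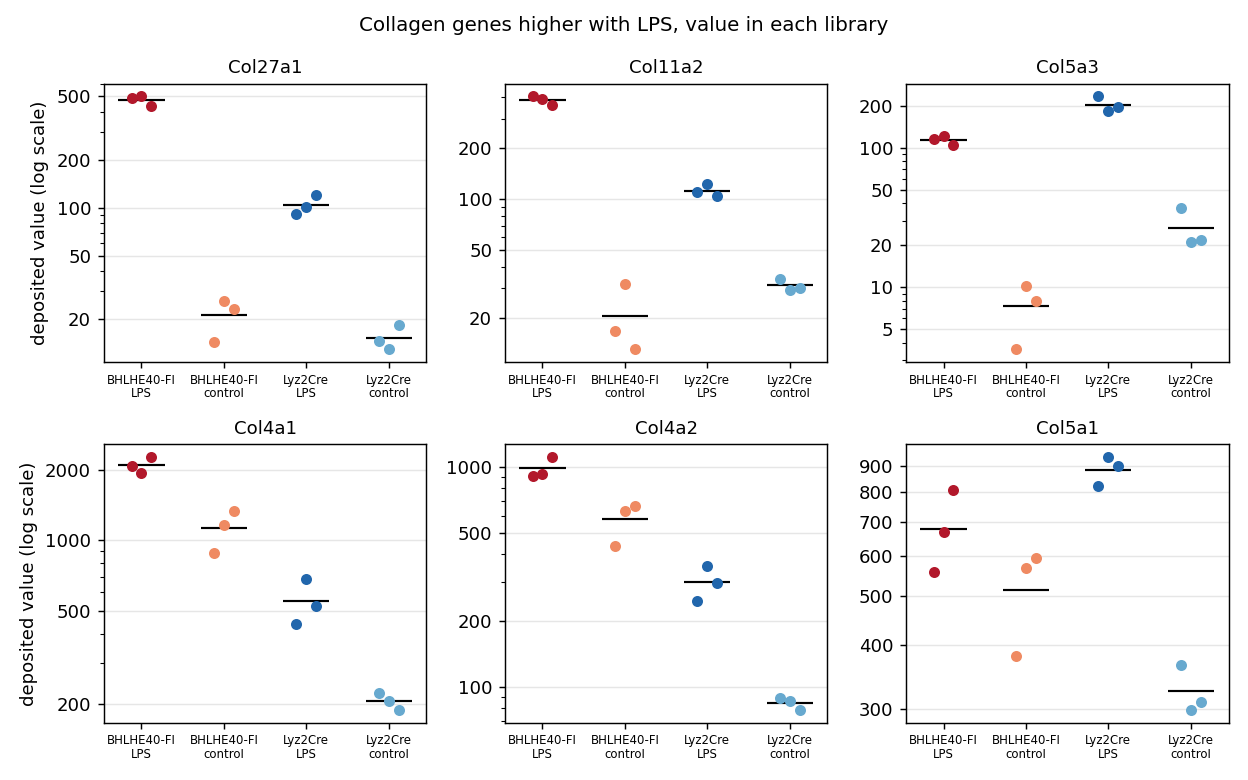
Deposited value in each library (points, log scale, with a line at the mean of 3) of 6 collagen genes called higher with LPS under both labels, by group. Col27a1, Col11a2 and Col5a3 separate by treatment under each label, while Col4a1 and Col4a2 separate all 4 groups and the Col5a1 values of the Lyz2Cre-BHLHE40-Fl LPS and control libraries overlap. BHLHE40-Fl on the axes stands for Lyz2Cre-BHLHE40-Fl.

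Type IV collagen genes also rose under both labels. Col4a1 was 1.85-fold higher with LPS in Lyz2Cre-BHLHE40-Fl (log2 0.91 ± 0.15, adjusted p = 5.43e-05) and 2.66-fold higher in Lyz2Cre (log2 1.39 ± 0.15, adjusted p = 3.59e-07). Col4a2 was 1.70-fold higher in Lyz2Cre-BHLHE40-Fl (log2 0.79 ± 0.15, adjusted p = 0.000323) and 3.52-fold higher in Lyz2Cre (log2 1.79 ± 0.15, adjusted p = 1.86e-08). In Lyz2Cre both passed under equal totals, and in Lyz2Cre-BHLHE40-Fl neither did (log2 0.29 and 0.17). Col18a1 was 1.97-fold higher in Lyz2Cre-BHLHE40-Fl (adjusted p = 0.000364) and 2.07-fold higher in Lyz2Cre (adjusted p = 0.000209), which did not pass under equal totals in either label (log2 0.39 and 0.35). Col5a1 was 1.32-fold higher in Lyz2Cre-BHLHE40-Fl (log2 0.41 ± 0.15, adjusted p = 0.0342), a call lost in 3 of the 12 fits that left out 1 library, and 2.73-fold higher in Lyz2Cre (log2 1.45 ± 0.15, adjusted p = 2.68e-07). The other head-to-head pair of measurable level, Col4a5 and Col4a6, did not pass with LPS under either label.

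In Lyz2Cre libraries 8 of the 11 fibrillar members were called higher with LPS and 0 lower, where 25% and 23.9% of all tested genes were called. Col1a2 was 1.85-fold higher (log2 0.86 ± 0.15, adjusted p = 0.000128) and Col5a2 2.48-fold higher (log2 1.26 ± 0.19, adjusted p = 1.88e-05). Col3a1 was 1.89-fold higher (log2 0.78 ± 0.26, adjusted p = 0.0168), a call that was lost without replicate 2 of the Lyz2Cre LPS group (adjusted p = 0.112). Col1a1 was 1.46-fold higher (log2 0.53 ± 0.21, adjusted p = 0.0485), which was lost in 9 of the 12 fits that left out 1 library, with an adjusted p of up to 0.211, and in edgeR (adjusted p = 0.0991). Of these 4 genes, only Col5a2 passed under equal totals (log2 0.54, adjusted p = 0.0224). Col6a1 was 2.85-fold higher with LPS (log2 1.51 ± 0.19, adjusted p = 3.16e-06) at values of 48.2 to 60.7, against 12.6 to 24.3 in controls. Col6a2 and Lamb1 were 1.60-fold and 1.48-fold higher (adjusted p = 0.0154 and 0.0303), neither of which edgeR called (adjusted p = 0.244 and 0.161). Lama3 was 4.16-fold higher (adjusted p = 0.00375) and Col14a1 was the 1 member called lower (log2 -1.89 ± 0.56, adjusted p = 0.00914). That Col14a1 call was lost without replicate 2 of the Lyz2Cre LPS group (adjusted p = 0.0579). Col19a1, counted among the 17 higher members, was at 11.1, 9.7 and 12.4 with LPS, against 0, 1.6 and 0 in controls (adjusted p = 0.000261). Apart from that 1.6, it reached the level chosen in LPS libraries alone, so its direction largely follows from the level.

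In Lyz2Cre-BHLHE40-Fl libraries the type I and III genes, the type VI genes other than Col6a6 and most laminins did not pass with LPS. Col1a2 averaged 5483 ± 1037 with LPS and 4898 ± 681 in controls, Col3a1 941 ± 203 and 1146 ± 255, Col6a1 812 ± 92.4 and 943 ± 131, and Lama5 384 ± 73.3 and 426 ± 109 (SD, n = 3 each). The members called lower were Lamc1, 1.21-fold (log2 -0.29 ± 0.09, adjusted p = 0.01), Col6a6, 2.89-fold (log2 -1.48 ± 0.26, adjusted p = 9.04e-05), Col14a1, Col8a2, Lama3, Col11a1 and Col28a1. Of these, Lamc1 lost its call in 2 of the 12 fits that left out 1 library, Col8a2 in 2 and Lama3 in 3. Col14a1 was 5.06-fold lower (adjusted p = 0.00546), Col8a2 2.78-fold (adjusted p = 0.0159) and Lama3 2.57-fold lower (adjusted p = 0.0315). Col11a1 and Col28a1 were at 0 in all Lyz2Cre-BHLHE40-Fl LPS libraries and averaged 2.93 and 1.93 in Lyz2Cre-BHLHE40-Fl controls, and the Col28a1 call was lost in 4 of the 12 fits. Col11a1 reached the level chosen through those controls alone, so its direction is no separate finding. Col28a1 reached it through values of 3.6 and 1.4 in those controls and 1.6 in a Lyz2Cre LPS library, so its direction largely follows from the level too.

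**Figure D4:**
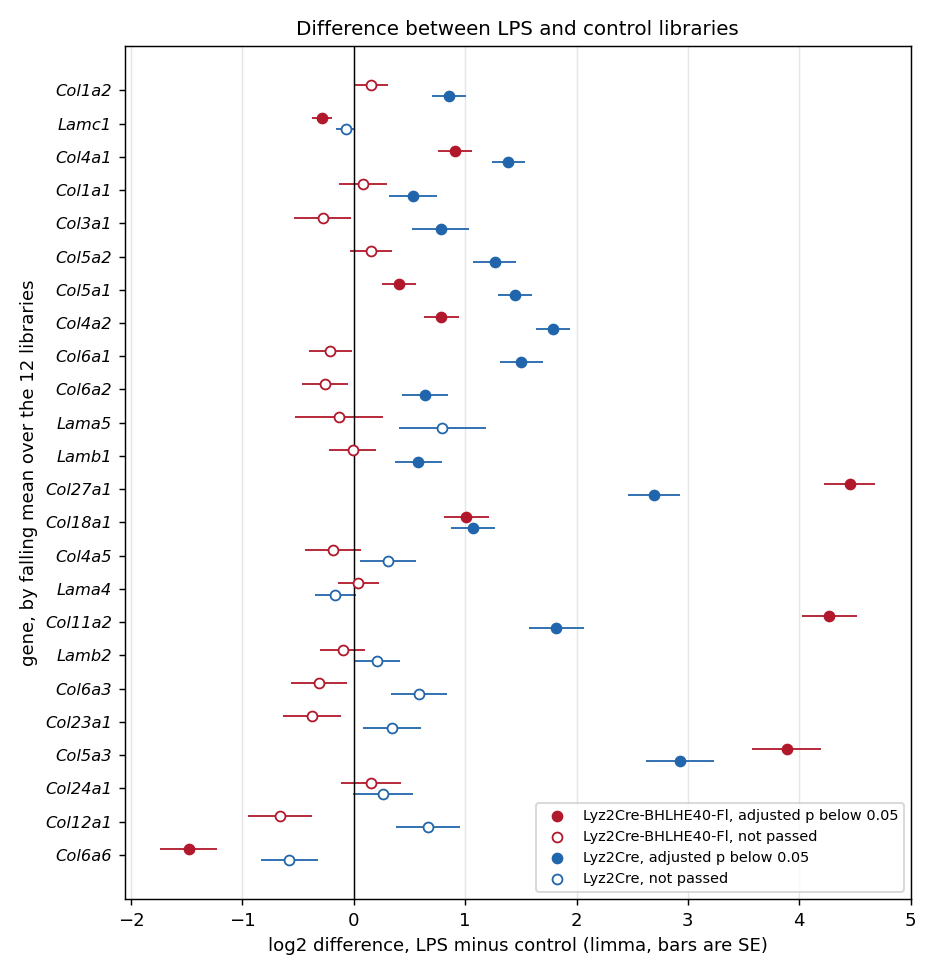
Log2 difference between LPS and control libraries (horizontal axis, limma estimates with SE bars) for the 24 members with the highest means (vertical axis), in Lyz2Cre-BHLHE40-Fl and in Lyz2Cre. Filled points passed the test. Col27a1, Col11a2 and Col5a3 lie farthest to the right under both labels, and most type I, III, V and VI genes lie to the right of 0 in Lyz2Cre and near 0 in Lyz2Cre-BHLHE40-Fl.

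The difference between the 2 LPS changes was tested itself, as an interaction (Lyz2Cre-BHLHE40-Fl minus Lyz2Cre). It was called lower for 11 members and higher for 2, where 9.31% and 9.52% of all tested genes were called, and its median was -0.51, against -0.03 over all tested genes. The 2 higher ones were Col11a2 (log2 2.45 ± 0.35, adjusted p = 5.87e-05) and Col27a1 (log2 1.76 ± 0.33, adjusted p = 0.000758). Among the lower ones, Col6a1 (log2 -1.72 ± 0.27, adjusted p = 0.000182), Col5a2 (log2 -1.11 ± 0.27, adjusted p = 0.00647), Col5a1 (log2 -1.04 ± 0.22, adjusted p = 0.00206) and Col4a2 (log2 -1.0 ± 0.22, adjusted p = 0.003) kept the call in every fit that left out 1 library. Lama3, which was higher with LPS in Lyz2Cre and lower in Lyz2Cre-BHLHE40-Fl, had an interaction of -3.23 ± 0.70, adjusted p = 0.00284. The calls of Col1a2, Col3a1, Col6a2 and Col12a1 were each lost in 5 to 8 of the 12 such fits, and those of the first 3 under equal totals too. Col6a4 and Col11a1, the remaining 2, did not exceed 4.3 in any library. For Col11a1 the direction follows from the level chosen, which it reached through Lyz2Cre-BHLHE40-Fl controls alone. Without replicate 3 of the Lyz2Cre-BHLHE40-Fl control group 5 members were called lower, and 7 were without replicate 2 of the Lyz2Cre-BHLHE40-Fl control, the Lyz2Cre-BHLHE40-Fl LPS or the Lyz2Cre LPS group. Col5a3 and Col9a3 did not pass the interaction (log2 0.96 ± 0.44, adjusted p = 0.151 and 1.03 ± 0.45, adjusted p = 0.129), nor did Col4a1 (log2 -0.48 ± 0.21, adjusted p = 0.137) or Col1a1 (log2 -0.45 ± 0.30, adjusted p = 0.363).

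Markers of other cell types differed in the same comparisons. The mesothelial genes Upk3b and Lrrn4 averaged 444 ± 119 and 257 ± 58 in Lyz2Cre-BHLHE40-Fl LPS libraries and 629 ± 153 and 608 ± 124 in Lyz2Cre-BHLHE40-Fl controls. In Lyz2Cre libraries Upk3b was at 0 in all 6 and Lrrn4 averaged 0.533 with LPS and 0.8 in controls. The sum of 14 fibroblast and stromal markers did not go with the members: it was 7719 to 8182 in Lyz2Cre-BHLHE40-Fl LPS libraries and 7626 to 8382 in Lyz2Cre-BHLHE40-Fl controls, against 7941 to 8312 in Lyz2Cre LPS libraries and 9266 to 10407 in Lyz2Cre controls. Gsn, which macrophages also express, made up much of it. Its mean was 2195 and 3986 in Lyz2Cre-BHLHE40-Fl LPS and control libraries, against 5626 and 9172 in those of Lyz2Cre. There the whole sum averaged 8111 and 9941, so this sum does not stand for the rest of the list. Within the list Pdgfra averaged 1810 and 1441 in Lyz2Cre-BHLHE40-Fl LPS and control libraries, against 62.1 and 87.1 in those of Lyz2Cre. Dcn averaged 3206 and 2179, against 1124 and 533, in the same order of groups. Other genes of the list had lower means in Lyz2Cre-BHLHE40-Fl. With LPS Pdgfrb averaged 471 there, against 1132 in Lyz2Cre, though in controls it averaged 57.4 against 55.6. Thy1 averaged 16.8 against 34.2 in controls, and its mean was lower with LPS too. Pi16 averaged 0.433 and 0.233, against 5.77 and 10.6, in the order given for Dcn. Of the 13 tested genes of the list, 5 were higher in Lyz2Cre-BHLHE40-Fl in each treatment, 4 were lower with LPS and 3 in controls. The summed value of 10 endothelial markers was 3059 to 3117 in Lyz2Cre-BHLHE40-Fl LPS libraries and 3332 to 3641 in Lyz2Cre-BHLHE40-Fl controls, against 2018 to 2184 in Lyz2Cre LPS libraries and 926 to 1046 in Lyz2Cre controls, although Cldn5, Emcn and Erg averaged below 0.5 in every group. Kdr and Vwf made up most of this sum, at means of 1771 and 1222 in Lyz2Cre-BHLHE40-Fl LPS libraries and 813 and 2665 in Lyz2Cre-BHLHE40-Fl controls. In Lyz2Cre they averaged 1458 and 457 with LPS and 303 and 654 in controls. Of 7 tested endothelial markers, 2 were higher and 1 lower in Lyz2Cre-BHLHE40-Fl controls, and 1 higher and 1 lower with LPS. The summed value of 8 smooth muscle and pericyte markers was 1551 to 2134 and 1439 to 2029.8 in Lyz2Cre-BHLHE40-Fl LPS and control libraries, against 479 to 772.5 and 318 to 386 in those of Lyz2Cre. Des, of that list, averaged 938 and 778 in Lyz2Cre-BHLHE40-Fl LPS and control libraries, against 87.1 and 59.0 in those of Lyz2Cre, while Myh11 averaged below 3 in all groups. Macrophage genes differed unevenly between the labels. Adgre1 and Itgam averaged 12480 and 1036 in Lyz2Cre-BHLHE40-Fl LPS libraries and 5635 and 1179 in Lyz2Cre-BHLHE40-Fl controls, against 38486 and 9017 in Lyz2Cre LPS libraries and 30456 and 9695 in Lyz2Cre controls. In controls Cd68, Tyrobp and Spi1 averaged 44204, 18969 and 4208 in Lyz2Cre-BHLHE40-Fl, against 45308, 19953 and 3690 in Lyz2Cre. Of 6 tested mast cell markers 2 were lower in Lyz2Cre-BHLHE40-Fl in each treatment, and of 6 B cell markers 2 were lower with LPS. These genes were low: the mast cell markers averaged at most 20.8 in any group, and the B cell markers other than Cd22 at most 28.9. Of 7 T cell markers 6 were lower in each treatment and 1 was higher with LPS. The higher one was Lck, at a mean of 1133 in Lyz2Cre-BHLHE40-Fl and 374 in Lyz2Cre LPS libraries. T cell markers other than Lck were low too, at means of at most 31.2 in any group. Of 4 tested neutrophil markers 2 were lower in each treatment and 2 higher in controls. Beside all these marker counts, 15% of all tested genes were higher and 16.6% lower in controls, and 17.7% and 19.8% with LPS. With so few genes, the mast cell, B cell and neutrophil counts cannot be set apart from those shares. The part of any of these cells in the collagen and laminin values was not tested.

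**Figure D5:**
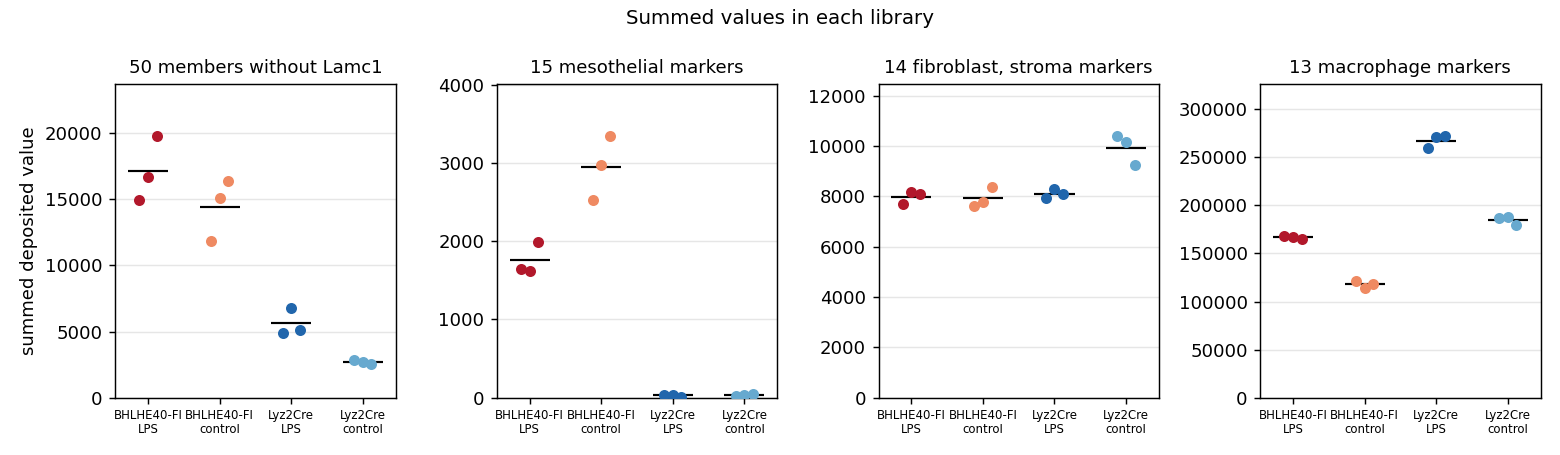
Summed deposited value in each library (points, with a line at the mean of 3) of the 50 members without Lamc1, of 15 mesothelial, 14 fibroblast and stromal, and 13 macrophage markers, by group. The first 2 sums are higher in all 6 Lyz2Cre-BHLHE40-Fl libraries, and the macrophage sum is lower in Lyz2Cre-BHLHE40-Fl libraries within each treatment. The stromal sum, much of which is Gsn, is highest in Lyz2Cre controls. BHLHE40-Fl on the axes stands for Lyz2Cre-BHLHE40-Fl.

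Genes that modify, fold and crosslink these chains were split. Of 32 tested, 13 were higher and 11 lower in Lyz2Cre-BHLHE40-Fl controls than in Lyz2Cre controls (15% and 16.6% of all tested genes), and 12 were higher and 10 lower with LPS (17.7% and 19.8%), with a median log2 difference of 0.71 and 0.24. Lox, the lysyl oxidase that crosslinks collagen and elastin, was lower in Lyz2Cre-BHLHE40-Fl libraries: it averaged 233 in Lyz2Cre-BHLHE40-Fl LPS libraries and 91.5 in Lyz2Cre-BHLHE40-Fl controls, against 12795 in Lyz2Cre LPS libraries and 4703 in Lyz2Cre controls (log2 -5.80 ± 0.13 with LPS, adjusted p = 2.36e-15). Pcolce, which speeds the trimming of procollagen, averaged 129 and 132 in Lyz2Cre-BHLHE40-Fl LPS and control libraries, against 5.3 and 6.53 in those of Lyz2Cre. Sparc and Serpinh1, a collagen-binding matrix protein and the collagen chaperone HSP47, were higher in Lyz2Cre-BHLHE40-Fl LPS libraries by 2.37 and 2.17 on the log2 scale. With LPS, 9 were higher and 9 lower in Lyz2Cre-BHLHE40-Fl and 15 higher and 8 lower in Lyz2Cre, which became 7 and 17, and 8 and 11, under equal totals. On the deposited scale the median log2 changes were 0.04 and 0.48. Of all tested genes, 24.9% were called higher and 25.6% lower with LPS in Lyz2Cre-BHLHE40-Fl, and 25% and 23.9% in Lyz2Cre, so the counts in Lyz2Cre-BHLHE40-Fl and the lower ones in Lyz2Cre were near the share over all genes. The interaction was higher for 3 and lower for 7 (5 and 5 under equal totals). On the deposited scale 9.52% and 9.31% of all tested genes were called, so the 3 were near the share over all genes. P4ha1, a prolyl hydroxylase subunit that collagen folding needs, averaged 8241 with LPS and 2406 in controls of Lyz2Cre-BHLHE40-Fl, and 20901 with LPS and 7201 in controls of Lyz2Cre.

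Of 30 tested partners in basement membrane and matrix, 20 were higher and 3 lower in Lyz2Cre-BHLHE40-Fl controls, and 18 were higher and 3 lower with LPS, with a median log2 difference of 1.87 and 1.28. Among all tested genes, 15% were higher and 16.6% lower in controls, and 17.7% and 19.8% with LPS. Nid2, a nidogen that links laminin to type IV collagen, averaged 107 and 222 in Lyz2Cre-BHLHE40-Fl LPS and control libraries, against 6.33 and 1.57 in those of Lyz2Cre. Eln, which encodes elastin, averaged 68.8 and 91.6, against 0.533 and 0.8, in the same order. With LPS, 6 were higher and 2 lower in Lyz2Cre-BHLHE40-Fl and 14 higher and 0 lower in Lyz2Cre, or 3 and 11, and 5 and 1, under equal totals. The median changes on the deposited scale were -0.04 and 0.78. The 6 and 2 in Lyz2Cre-BHLHE40-Fl were below the 24.9% and 25.6% of all tested genes, and the 14 higher in Lyz2Cre above the 25%. The interaction was higher for 2 and lower for 8, where 9.52% and 9.31% of all tested genes were called. Agrn, the basement membrane proteoglycan agrin, averaged 3808 with LPS and 295 in controls of Lyz2Cre-BHLHE40-Fl, and 2146 with LPS and 604 in controls of Lyz2Cre. Fbn1, the fibrillin of microfibrils, averaged 1930 with LPS and 472 in controls of Lyz2Cre-BHLHE40-Fl, and 1288 with LPS and 169.8 in controls of Lyz2Cre. Both passed under both labels.

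Among 22 tested receptors, 11 were higher and 5 lower in Lyz2Cre-BHLHE40-Fl controls, and 12 higher and 6 lower with LPS (medians 0.46 and 0.31). Over all tested genes, 15% were higher and 16.6% lower in controls, and 17.7% and 19.8% with LPS. The counts of lower receptors between the labels were not far above these shares. Itga3, an integrin chain that binds laminins, averaged 306.5 and 382 in Lyz2Cre-BHLHE40-Fl LPS and control libraries, against 16.1 and 8.53 in those of Lyz2Cre. The collagen receptor kinases Ddr1 and Ddr2 averaged 478 and 390.5 in Lyz2Cre-BHLHE40-Fl LPS libraries and 302 and 271 in Lyz2Cre-BHLHE40-Fl controls, against 36.5 and 42.0 in Lyz2Cre LPS libraries and 26.9 and 25.5 in Lyz2Cre controls. With LPS, 9 receptors were higher and 6 lower in Lyz2Cre-BHLHE40-Fl and 10 higher and 4 lower in Lyz2Cre, or 6 and 9, and 6 and 7, under equal totals. Their median changes on the deposited scale were 0.29 and 0.31. Against 24.9% and 25.6% of all tested genes in Lyz2Cre-BHLHE40-Fl and 25% and 23.9% in Lyz2Cre, the counts of lower receptors were near the share over all genes. The interaction was higher for 1 and lower for 4, where 9.52% and 9.31% of all tested genes were called. Lair1, an inhibitory collagen receptor of leukocytes, averaged 509.5 with LPS and 3194 in controls of Lyz2Cre-BHLHE40-Fl (log2 -2.65 ± 0.09), and 2133 with LPS and 5679 in controls of Lyz2Cre. Of 18 tested genes of the TGF-beta and YAP pathways, which act on matrix genes in other cells, 9 were higher and 2 lower in Lyz2Cre-BHLHE40-Fl controls, and 11 higher and 1 lower with LPS (medians 0.56 and 1.13), or 13 and 1 in each treatment under equal totals. The shares over all tested genes were those given for the receptors. Under equal totals they were 25% higher and 12.4% lower in controls, and 30.4% and 11% with LPS. Tead1 averaged 298 and 204 in Lyz2Cre-BHLHE40-Fl LPS and control libraries, against 26.7 and 8.93 in those of Lyz2Cre, and Yap1 236 and 162, against 26.7 and 16.9. With LPS, 5 of these genes were higher and 3 lower in Lyz2Cre-BHLHE40-Fl and 7 higher and 3 lower in Lyz2Cre, or 1 and 7, and 2 and 4, under equal totals. The medians of these changes on the deposited scale were 0.24 and 0.42. The 5 higher in Lyz2Cre-BHLHE40-Fl were near the 24.9% of all tested genes, and the 3 lower in each label were below the 25.6% in Lyz2Cre-BHLHE40-Fl and 23.9% in Lyz2Cre. The interaction was higher for 2, near the 9.52% of all tested genes, and lower for 0, against 9.31%.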

How the data were processed

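RNA of 12 libraries, 3 in each of 4 groups, was sequenced on Illumina instruments. The submitters' processing notes name STAR, Cufflinks, Cuffdiff and mm10. Not given in the sources used here are the counter, annotation and strand setting, and how much LPS was used and for how long. The authors deposited 1 signal value per gene and library, with replicates kept apart. In every library 100% of low values were whole multiples of 1 step (tolerance 0.06), so whole reads could be recovered.

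The test covered 20419 genes that reached a value of 1 in 3 or more libraries, by limma 3.58.1 (R 4.3.3, trend) on log2(value + 1) over all 12 libraries, and p-values were Benjamini-Hochberg adjusted over all of them, with calls below 0.05. Fold changes are ratios of group means of deposited values, and log2 differences come from log2(value + 1), so those of low genes are understated. The edgeR 4.0.16 quasi-likelihood test with TMM on the recovered reads, added after the data were seen, called 10131 genes for LPS in Lyz2Cre-BHLHE40-Fl, 9798 for LPS in Lyz2Cre, 6823 and 6999 between the labels in controls and with LPS, and 3767 for the interaction. Scripts were tested on simulated data. Intervals and floors (3 reads) cover counting error only.

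The 24 members with the highest means were described one by one, others by group means or counts, and of each pathway list called genes with the largest changes. Members, gene lists and markers (mesothelium, fibroblast and stroma, endothelium, smooth muscle and pericyte, macrophage, mast cell, B cell, T cell, neutrophil) were chosen with earlier results of these data known. Values per kilobase use the longest basic coding transcript. Promoter sequences are from RefSeq on GRCm38.p6. Some single-gene results are not reported here, though those genes stay in all counts and sums.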

Additional observations from a re-analysis of the deposited data

Results flagged for a closer look

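For 10 of the 24 members described one by one, the change with LPS differed between the genotype labels by the interaction test of limma, given here as the log2 change in Lyz2Cre-BHLHE40-Fl minus that in Lyz2Cre. The change was larger in Lyz2Cre-BHLHE40-Fl for Col11a2 (2.45) and Col27a1 (1.76). It was smaller there for Col6a1 (-1.72), Col12a1 (-1.33), Col5a2 (-1.11), Col3a1 (-1.06), Col5a1 (-1.04), Col4a2 (-1.0), Col6a2 (-0.89) and Col1a2 (-0.70). In Lyz2Cre-BHLHE40-Fl controls all 8 of these already averaged more than in Lyz2Cre controls. In fits that left out 1 library at a time, Col1a2, Col3a1, Col6a2 and Col12a1 each lost this call in 5 to 8 of 12.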

How the results depend on the processing

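Counts of called members depended most on the scaling and on the few genes called lower. With equal library totals, LPS in Lyz2Cre-BHLHE40-Fl gave 4 higher and 24 lower, LPS in Lyz2Cre gave 10 higher and 7 lower, and the label with LPS gave 2 lower. The log2 change with LPS then turned negative for Col1a1 (-0.20), Col6a2 (-0.030) and Lamb1 (-0.13) in Lyz2Cre and for Col5a1 (-0.21) in Lyz2Cre-BHLHE40-Fl. With a pseudocount of 0.1, 4 were lower for LPS in Lyz2Cre-BHLHE40-Fl and 1 for the label with LPS. For LPS in Lyz2Cre, 2 were lower with a filter at 5, 0 with only the compared groups in the fit and 2 by edgeR. For the label with LPS, 2 were lower without a filter and 2 by edgeR. With a minimum log2 change of 1, 5 were higher for LPS in Lyz2Cre-BHLHE40-Fl, 2 were lower for the label in controls and 1 for the label with LPS. The cause of these shifts was not tested. Leaving out 1 library at a time gave 7 to 9 higher and 5 to 7 lower for LPS in Lyz2Cre-BHLHE40-Fl, 15 to 18 higher and 0 to 1 lower for LPS in Lyz2Cre, 28 to 31 higher and 3 to 4 lower for the label in controls, 25 to 27 higher and 2 to 4 lower for the label with LPS, and 2 higher and 5 to 11 lower for the interaction. The 0 arose without replicate 2 of Lyz2Cre LPS, and the 2 without replicate 2 of Lyz2Cre-BHLHE40-Fl LPS or replicate 2 or 3 of Lyz2Cre LPS. Whether replicate numbers pair the samples is not given. Over 18 same-number pairs the correlation of deviations over all tested genes was -0.066 to 0.028, which cannot exclude pairing. Among the members, replicate 1 was most often the lowest and replicate 3 most often the highest in both Lyz2Cre-BHLHE40-Fl groups, as given below. With the replicate block the label in controls gave 30 higher and 4 lower, the label with LPS 27 and 3, the interaction 2 and 9, LPS in Lyz2Cre-BHLHE40-Fl 8 and 7, and LPS in Lyz2Cre 17 and 1. Of the called changes of single genes, under the settings that kept all libraries, 858 values kept direction and call and 64 kept the direction only.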

Other observations

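Within the groups, collagen and laminin values tended to move together from library to library. Among the 29 members with a mean of at least 20, replicate 1 of the Lyz2Cre-BHLHE40-Fl controls was the lowest of its group for 23 (79.3%, against 35.2% of 11996 tested genes of that level) and replicate 3 the highest for 20 (69.0%, against 27.2%). The mesothelial marker sum was likewise lowest in replicate 1 (2523) and highest in replicate 3 (3343) of that group. Replicate 3 of the Lyz2Cre-BHLHE40-Fl LPS group was the highest for 21 of the 29 (72.4%, against 27.8%), and its mesothelial sum was the highest of that group (1991). Replicate 1 of that group was the lowest for 15, whereas the mesothelial sum was lowest in replicate 2 (1616, against 1649 in replicate 1). In Lyz2Cre, replicate 2 of the LPS group was the highest for 16 (55.2%, against 37.3%) and replicate 1 of the controls for 17 (58.6%, against 27.3%). The mesothelial sum did not follow these: it was 37.3 in replicate 2 and 37.6 in replicate 1 of the Lyz2Cre LPS group, and lowest in replicate 1 of the Lyz2Cre controls (23.2, against 38 and 42.7). These sums rest on few reads, with 6 to 12 of the 15 markers at 0 in each Lyz2Cre library. Their order therefore cannot be read as that of mesothelial RNA. The part of mesothelial RNA in this order was not tested.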
